A study of Mus musculus with 12 samples.

Results

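The genes described here encode subunits of neurotransmitter receptors, the membrane proteins through which cells respond to GABA, glutamate, acetylcholine, glycine and serotonin. They were chosen by name: a probe was taken when its gene symbol began with Gabr, Gria, Grik, Grin1, Grin2, Grin3, Grm, Chrn, Chrm, Glra, Glrb or Htr, and Grina and the Htra genes were left out. This gave 73 of the 21998 probes on the array, for 64 of 15063 named genes, and 42 of these genes had enough values for a test. The 64 genes fall into 9 classes, with 14 GABA-A, 4 AMPA, 4 kainate, 5 NMDA, 3 metabotropic glutamate, 13 nicotinic, 4 muscarinic, 3 glycine and 14 serotonin receptor genes.

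Most of these proteins are ion channels built from several subunits around a central pore, and the choice of subunits sets how strongly and how long a channel opens. The metabotropic glutamate receptors, the muscarinic receptors and all serotonin receptors other than type 3 form no channel and signal through G proteins instead. In the embryonic cortex such receptors are present before most synapses form, and GABA and glutamate released nearby are known to influence the division of progenitors and the migration of young neurons. GABA often depolarises these immature cells, whereas it mostly inhibits mature neurons.

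The samples were neocortex of mouse embryos at E13.5 of embryonic development, divided so that its rostral and its caudal part could be compared within the same pool of embryos. The outbred strain MF1 and the inbred strain C57, given as C57Bl\6 in the design text, each provided 3 pools, and no group carried a transgene, a mutation or a treatment. According to the labels a pool held the tissue of 3 embryos, while the design text gives only a lower minimum, and a pair of arrays per pool, 12 arrays in all, carried it with Cy3 and Cy5 exchanged. Rostral and caudal RNA competed on the same array, so each value is a log2 ratio and not a level. Trizol was used to extract total RNA, and the cDNA was amplified by the SMART method before labelling. The comparison asks which transcripts are graded along the axis on which cortical areas later form, and per the design text the strains were included to control for variation between them. Separate litters are not stated for the pools, so p-values measure the spread between these pools, which may be partly technical.

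Between 17998 and 20997 probes had a value on an array. Receptor probes had no value in 13.0% of their array measurements, against 11.4% for all probes, and the share was 9.36% in MF1 and 16.7% in C57. Missing values took 0% of the AMPA measurements, 20% of the serotonin measurements and 25.0% of the muscarinic ones. The log2 ratios were also more scattered on the C57 arrays, with a robust SD of 0.745 against 0.487 on the MF1 arrays, and since each array held 1 strain, strain and array set cannot be told apart. Ratios below 0 are read as lower in rostral than in caudal cortex. That direction is likely rather than known, because the dye used as numerator was inferred, and its basis is that Nr2f1, a nuclear receptor known to be high caudally, then has a log2 ratio of -1.14 and lies below 0 in 6 of 6 pools. In the deposited values, the dye exchange should give the arrays of a pool opposite deviations from their group mean. The Spearman correlations of these deviations were weak, from -0.30 to -0.10, and 0.01 in C57 pool 3. As ratios hold no level, the tissue could not be checked by the level of its marker genes.

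Over both strains, none of the 42 receptor genes differed between rostral and caudal cortex after correction (limma on pool means, Benjamini-Hochberg over 14418 features). The same fit passed 0% of all features. The smallest adjusted p among receptor genes was 0.434, for Grik2. At an unadjusted p under 0.05, 4 receptor genes had a ratio below 0, namely Gabra2, Gabra3, Grik2 and Htr5a, and 1 had a ratio above 0, Chrng. Across all features 4.64% met the same limit below 0 and 4.34% above 0, and counts of 4 and 1 among 42 genes were not read as a difference of the receptor genes from the rest. The receptor ratios lay on both sides of 0, with 23 genes below and 19 above and a median of -0.05, while the median of all features was 0.01. Without centring of the arrays the split was 34 below and 8 above, with a receptor median of -0.24, and the median of all features was then -0.18. Their median size without regard to sign was 0.166 on the log2 scale, against 0.153 for all features. A size over 0.5 was found for 6 receptor genes, or 14.3%, and for 8.75% of all features. In bulk tissue, a smaller number of cells that express a receptor and less of its RNA per cell cannot be told apart.

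**Figure D1:**
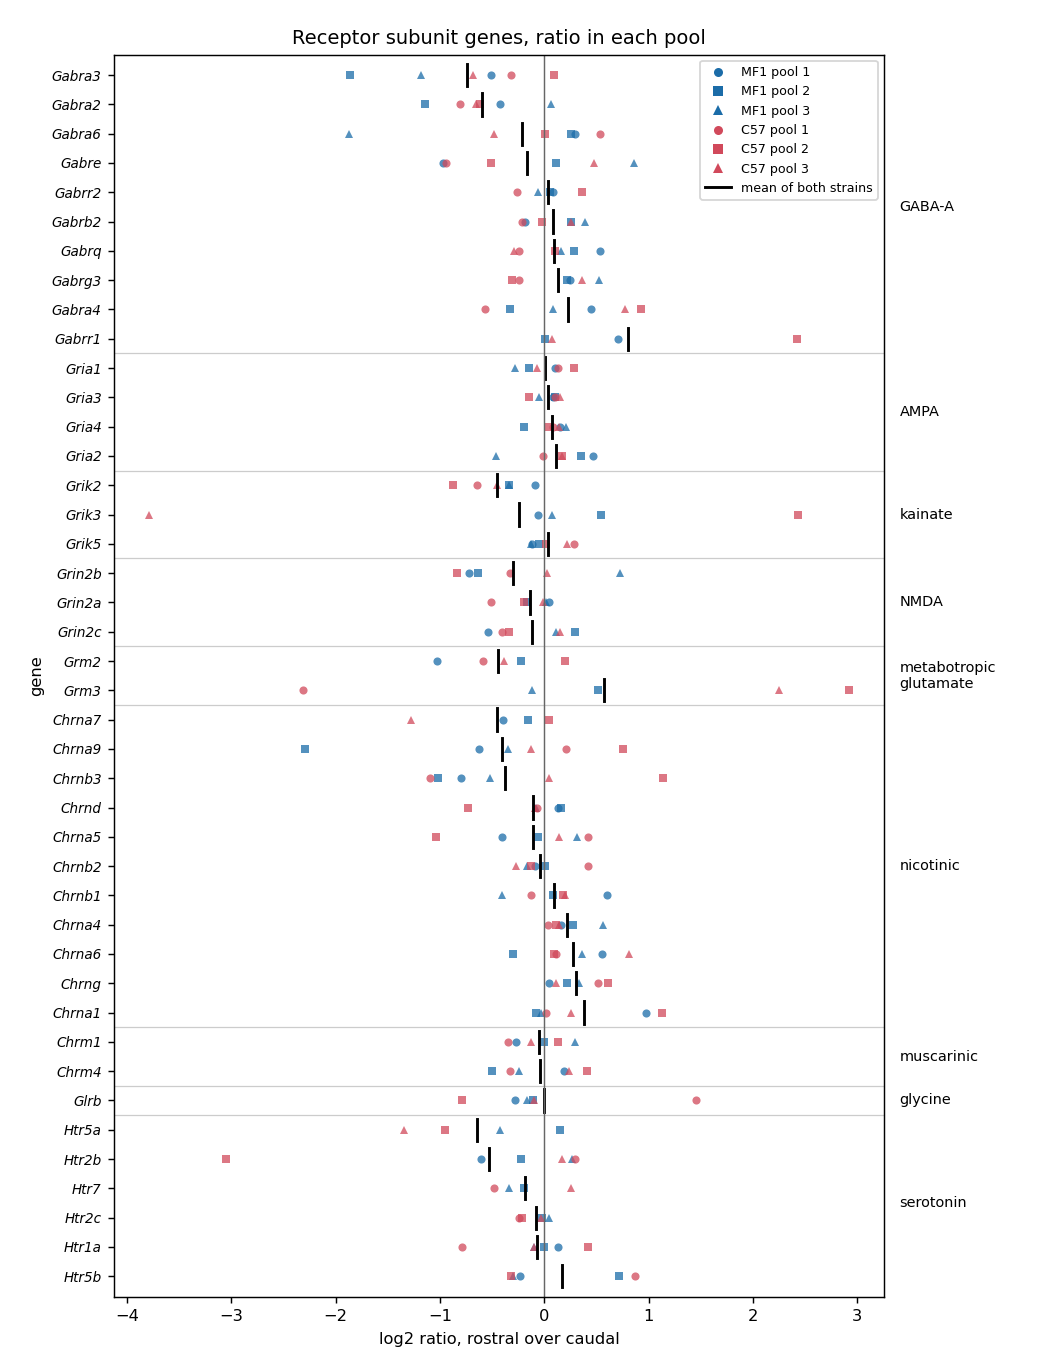
Log2 ratio of rostral over caudal cortex (horizontal axis) of the 42 tested receptor genes in each pool, grouped by receptor class. Blue marks are the 3 MF1 pools and red marks the 3 C57 pools, and the black bar is the mean of both strains; most genes scatter around 0, while all 6 marks of Grik2 lie below 0 and all 6 of Chrng and Chrna4 above it.

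The GABA-A receptor is a chloride channel, and its alpha subunits help form the GABA binding site and set the channel's sensitivity. Of 14 GABA-A genes 10 were tested, of which 6 had ratios above 0 and 4 below, with a median of 0.06. The lowest ratios of all tested receptor genes belonged to the alpha subunits Gabra3 and Gabra2 and to the serotonin receptor Htr5a.

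Gabra3, the alpha-3 subunit, had log2 ratios of -0.51, -1.86 and -1.18 in MF1 pools 1 to 3 and of -0.32, 0.10 and -0.69 in C57 pools 1 to 3. It lay below 0 in every MF1 pool and in C57 pools 1 and 3. Its mean was -0.74 ± 0.69 (SD, n = 6 pools), a 1.67-fold difference with a standard error of 0.20 on the log2 scale. The unadjusted p was 0.0079 and limma's adjusted p was 0.451. On single arrays 8 of 12 values of Gabra3 lay below 0. The 2 arrays of MF1 pool 1 read 0.20 and -1.22, and those of C57 pool 1 read -1.03 and 0.395.

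Gabra2, the alpha-2 subunit, which is typical of the immature forebrain, read -0.42, -1.14 and 0.06 in MF1 and -0.81, -0.62 and -0.66 in C57. The C57 pools lay close together, and MF1 pool 3 alone was above 0. Its mean was -0.60 ± 0.40 (SD, n = 6 pools) with a standard error of 0.17. The unadjusted p was 0.0098 and limma's adjusted p was 0.464.

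These values are means of a pair of Gabra2 probes that disagreed. The first probe, designed on a RefSeq mRNA record, had pool ratios of -1.07, -1.14 and -0.73 in MF1 and of -1.72, -1.36 and -1.36 in C57, and it lay below 0 on all 12 arrays, from -2.15 to -0.41. The second probe, designed on a GenBank cDNA record, ranged from -0.10 to 1.14 on the 11 arrays where it had a value. The first probe read lower than the second on 11 of those 11 arrays, by 0.541 to 2.26 on the log2 scale. In MF1 pool 2 the second probe lacked a value on 1 array, so the gene's ratio there is that of the first probe alone. Which transcripts each probe detects was not tested.

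When each probe was fitted alone, the first Gabra2 probe had a log2 ratio of -1.23 with a standard error of 0.12, a 2.35-fold difference. Its unadjusted p was 2.3e-05 and limma's adjusted p over 15289 features was 0.127, and 0% of features passed in that fit. Among the 11071 probes with values on all 12 arrays its adjusted p was 0.0384, and 6 probes passed there. The log2 ratio of this probe stayed between -1.42 and -1.08 over the other settings tried, with adjusted p-values from 0.0384 to 0.515. The second probe had a ratio of 0.32 with a standard error of 0.15 in the fit of each probe (adjusted p = 0.583). Of the 34 receptor probes complete on all 12 arrays, the first Gabra2 probe was the 1 that lay below 0 on every array, and 0 lay above 0 on every array. Among all complete probes these shares were 0.244% below and 0.253% above.

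**Figure D2:**
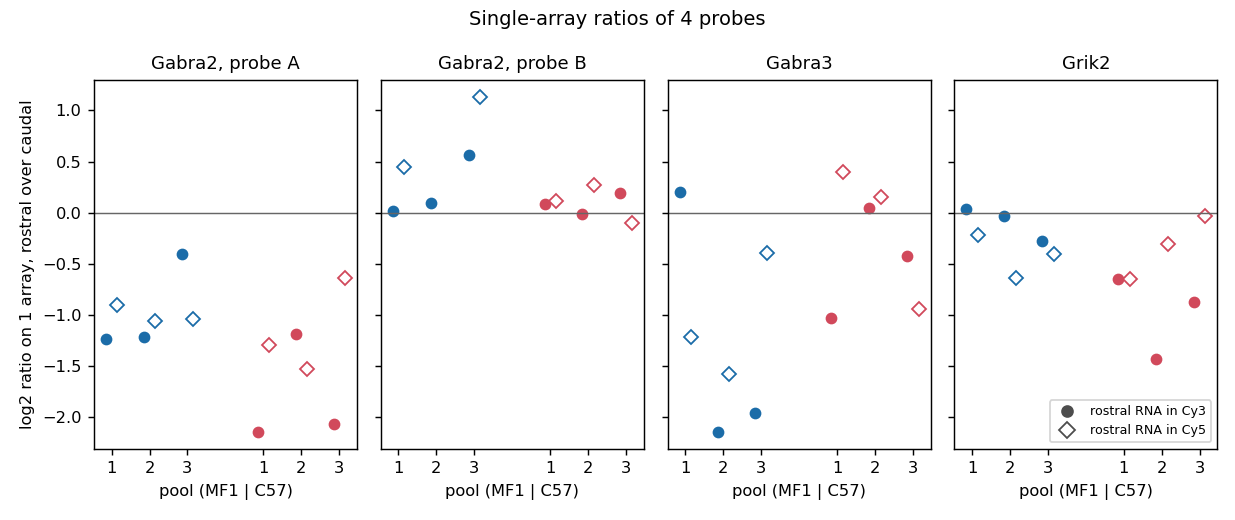
Log2 ratio of rostral over caudal cortex (vertical axis) on each of the 12 arrays, by pool, for both Gabra2 probes and the probes of Gabra3 and Grik2, with MF1 in blue and C57 in red; filled circles are arrays with rostral RNA in Cy3 and open diamonds arrays with it in Cy5. The first Gabra2 probe (A) is below 0 on every array, from -2.15 to -0.41, while the second (B) ranges from -0.10 to 1.14.

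For the 3 genes with the smallest p-values, Grik2, Gabra3 and Gabra2, the 250 bases before the annotated start are shown from RefSeq (build GRCm38.p6), because promoters with and without CpG dinucleotides occur among them. Capitals mark CpG, the dinucleotide at which vertebrate DNA is methylated, and each sequence runs 5′ to 3′ on the gene's strand. Gabra2 lies at chr5:71095850-71096099, Gabra3 at chrX:72656808-72657057 (1 of 2 entries) and Grik2 at chr10:49788755-49789004, all on the minus strand.
Gabra2: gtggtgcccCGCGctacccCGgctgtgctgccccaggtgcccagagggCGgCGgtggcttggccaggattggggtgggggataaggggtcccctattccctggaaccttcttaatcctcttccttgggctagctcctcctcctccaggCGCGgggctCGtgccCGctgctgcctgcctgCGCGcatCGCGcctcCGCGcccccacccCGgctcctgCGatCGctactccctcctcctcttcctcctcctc
Gabra3: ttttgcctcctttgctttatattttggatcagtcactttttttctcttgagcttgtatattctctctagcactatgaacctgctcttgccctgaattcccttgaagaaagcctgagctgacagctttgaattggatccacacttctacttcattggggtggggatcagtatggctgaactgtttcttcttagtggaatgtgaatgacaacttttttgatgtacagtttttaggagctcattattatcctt
Grik2: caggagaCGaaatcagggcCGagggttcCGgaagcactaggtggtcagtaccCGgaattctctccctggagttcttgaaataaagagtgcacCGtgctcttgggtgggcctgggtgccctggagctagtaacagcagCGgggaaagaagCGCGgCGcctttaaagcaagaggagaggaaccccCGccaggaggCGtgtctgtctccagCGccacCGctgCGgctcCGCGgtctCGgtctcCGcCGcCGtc

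The Gabra2 window holds 18 CpG and 70.0% G and C, the Grik2 window 20 CpG and 62.8%, and the Gabra3 window 0 CpG and 39.2%. Over the 58 promoter entries found for 49 of the 64 receptor genes the median was 8.5 CpG, against 6 for all 32851 entries. AGGTCA, the core sequence recognised by many nuclear receptors, was searched on both strands and was found in 12.1% of receptor entries and 14.0% of all entries. TAATTA, a core sequence of many homeodomain factors that reads the same on both strands, was found in 5.17% and 4.84%. TATAAA on the gene's strand was found in 3.45% and 7.59%. None of these letters occurs in the 3 windows shown.

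The other GABA-A subunits gave values near 0 or with wide spread. Gabra4, an alpha subunit, had a mean of 0.22 ± 0.60 (SD, n = 6 pools), and Gabra6, known from cerebellar granule cells, had -0.21 ± 0.88 (SD, n = 6 pools). Gabra6 averaged 0.60 with rostral RNA in Cy3 and -1.02 with it in Cy5, and the 2 arrays of C57 pool 1 read 4.30 and -3.22. Gabrb2, a beta subunit that takes part in the GABA site, had 0.08 ± 0.25 (SD, n = 6 pools), and its 3 probes averaged between -0.17 and 0.57. Gabrg3, a gamma subunit, had 0.13 ± 0.34 (SD, n = 6 pools), but its probes averaged -0.07 and 0.53. Gabrq, the theta subunit, had 0.09 ± 0.31 (SD, n = 6 pools), and Gabre, the epsilon subunit, had -0.16 ± 0.76 (SD, n = 6 pools). Gabrr2, a rho subunit, had 0.04 ± 0.23 (SD, n = 5 pools). Gabrr1, another rho subunit, had the highest fitted ratio of the tested receptor genes, 0.80, yet its 4 pools read 0.70, 0.00, 2.42 and 0.08, so 1 C57 pool set most of that value.

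Several GABA-A genes lie in clusters on a chromosome, which allows neighbours to be compared. In the cluster of Gabrg1, Gabra2, Gabra4 and Gabrb1, Gabra2 had a mean of -0.60 and its neighbour Gabra4 of 0.22. In the cluster on the X chromosome, Gabra3 had -0.74, Gabre -0.16 and Gabrq 0.09. The neighbouring Gabrr1 and Gabrr2 both lay above 0, at 0.80 and 0.04, and Gabra6 and Gabrb2 had -0.21 and 0.08. Among the other receptors, Chrnd and Chrng, both of muscle-type nicotinic receptors, had -0.11 and 0.30, Chrnb3 and Chrna6 had -0.37 and 0.27, and Gria2 and Glrb had 0.12 and 0.00. Of the 7 clusters with 2 or more tested genes, 5 held means on different sides of 0 and 2 on the same side. The same-side count includes Gria2 and Glrb, although the Glrb mean was only 0.0015. Differences between neighbours were not tested.

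The AMPA receptors carry most fast excitation in the mature brain, and Gria1 to Gria4 encode their subunits. All 4 were tested, all had means above 0, and the median was 0.05, but all 4 lay below 0 when arrays were not centred and 3 of 4 with rostral RNA in Cy3 alone. Gria2, the subunit that keeps calcium from passing, read 0.47, 0.35 and -0.46 in MF1 and -0.01, 0.17 and 0.17 in C57. Its mean of 0.12 ± 0.33 (SD, n = 6 pools) was smaller than the spread between pools. Gria4 had 0.15, -0.19 and 0.21 in MF1 and 0.08, 0.03 and 0.14 in C57, with a mean of 0.07 ± 0.14 (SD, n = 6 pools). The means of Gria2 and Gria4 lay below 0 when arrays were not centred, at -0.07 and -0.12, and with rostral RNA in Cy3 alone, at -0.03 and -0.02. Gria3 had 0.04 ± 0.11 (SD, n = 6 pools), with probe means of 0.04 and 0.04, and Gria1 had 0.01 ± 0.21 (SD, n = 6 pools), with probe means of -0.18 and 0.19.

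Kainate receptors are a related family of glutamate-gated channels that also act before the synapse. Of 4 genes 3 were tested. Grik2, which encodes the GluK2 subunit, had the smallest p of all receptor genes over both strains. Its log2 ratios were -0.09, -0.33 and -0.34 in the MF1 pools and -0.65, -0.87 and -0.45 in the C57 pools. All 6 pools lay below 0. The mean was -0.46 ± 0.27 (SD, n = 6 pools), a 1.37-fold difference, with a standard error of 0.11. The unadjusted p was 0.0052 and limma's adjusted p was 0.434. On single arrays 11 of 12 values lay below 0.

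Grik2 was the 1 receptor gene below 0 in 6 of 6 pools among the 32 with values in every pool, and 2.5% of all such features were. Grik5, another kainate receptor subunit, had -0.12, -0.05 and -0.12 in MF1 and 0.29, 0.02 and 0.22 in C57. Its mean of 0.04 ± 0.18 (SD, n = 6 pools) turned to -0.15 without centring and to -0.01 with rostral RNA in Cy3 alone. Grik3, another channel subunit, had -0.06, 0.54 and 0.07 in MF1 but 2.44 and -3.78 in C57 pools 2 and 3. Its mean of -0.25 in the fit (adjusted p = 0.945) therefore carries a standard error of 0.85.

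NMDA receptors are glutamate-gated channels that pass calcium and open when glutamate and depolarisation coincide. The rule found 5 genes, Grin2a, Grin2b, Grin2c, Grin2d and Grin3b, and the 3 that could be tested all had means below 0, with a median of -0.14. Grin2b, the subunit known to dominate in the embryo, had -0.72, -0.64 and 0.73 in MF1 and -0.33, -0.84 and 0.02 in C57. Both strains thus held pools on either side of 0, and its mean of -0.29 ± 0.59 (SD, n = 6 pools) had an adjusted p of 0.723. Grin2a, which takes over after birth, had 0.05, -0.17 and 0.02 in MF1 and -0.51, -0.19 and -0.01 in C57, with a mean of -0.14 ± 0.21 (SD, n = 6 pools). Grin2c, known mainly from cerebellum, had -0.54, 0.30 and 0.11 in MF1 and -0.40, -0.33 and 0.16 in C57, with a mean of -0.12 ± 0.35 (SD, n = 6 pools). With rostral RNA in Cy5 alone, the means of Grin2b and Grin2c lay above 0, at 0.10 and 0.11.

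Metabotropic glutamate receptors act through G proteins, and both tested genes belong to the group that lowers cyclic AMP. Grm2 had -1.02 and -0.22 in MF1 pools 1 and 2 and -0.59, 0.20 and -0.38 in C57. It lay below 0 in 4 of 5 pools, with a mean in the fit of -0.44 and a standard error of 0.19 (adjusted p = 0.579). Grm3 had 0.51 and -0.12 in MF1 pools 2 and 3 and -2.31, 2.92 and 2.25 in C57. The C57 pools of Grm3 spanned a far wider range than those of MF1, and its fitted mean of 0.58 had a standard error of 0.78.

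Nicotinic receptors are channels opened by acetylcholine, built from neuronal or from muscle-type subunits. Of 13 genes 11 were tested, 5 with means above 0 and 6 below, with a median of -0.04. Chrng, the gamma subunit of the fetal muscle receptor, had ratios of 0.05, 0.22 and 0.33 in MF1 and of 0.51, 0.61 and 0.11 in C57. All 6 pools lay above 0, and the mean was 0.30 ± 0.22 (SD, n = 6 pools) with a standard error of 0.12. The unadjusted p was 0.037 and limma's adjusted p was 0.532. On single arrays 9 of 12 values were above 0. The 2 arrays of C57 pool 2 read 2.27 and -1.04, and those of C57 pool 1 read -0.38 and 1.40.

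Chrna4, which with Chrnb2 forms the main high-affinity nicotinic receptor of the brain, had 0.16, 0.28 and 0.57 in MF1 and 0.04, 0.12 and 0.14 in C57. Its mean was 0.22 ± 0.19 (SD, n = 6 pools), with an adjusted p of 0.598. Chrng and Chrna4 were the 2 receptor genes above 0 in 6 of 6 pools, of 32 with values in every pool, and 3.47% of all such features were. The probes of Chrna4 averaged 0.43 and 0.00, and with rostral RNA in Cy5 alone the gene's mean was -0.03. Chrnb2 itself had -0.04 ± 0.24 (SD, n = 6 pools).

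Among the remaining nicotinic genes, Chrna7, the calcium-permeable alpha-7 subunit, had a mean of -0.45 ± 0.58 (SD, n = 4 pools). Chrna1 and Chrnb1, of the muscle receptor, had 0.38 ± 0.53 and 0.09 ± 0.34 (SD, n = 6 pools). Chrna6 and Chrnb3, which pair in dopaminergic neurons, had 0.27 ± 0.39 and -0.37 ± 0.85 (SD, n = 6 pools). Chrna5, an accessory subunit, had -0.10 ± 0.54 (SD, n = 6 pools). For each of these genes the spread between pools was larger than the mean.

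Muscarinic receptors answer acetylcholine through G proteins. Chrm1 had -0.27, -0.01 and 0.29 in MF1 and -0.35, 0.13 and -0.12 in C57, and Chrm4 had 0.18, -0.50 and -0.24 in MF1 and -0.33, 0.41 and 0.23 in C57. Their means were -0.05 ± 0.24 and -0.04 ± 0.37 (SD, n = 6 pools), with both strains of each gene on either side of 0. With rostral RNA in Cy3 alone the means were 0.06 and 0.03. Glrb, the beta subunit that anchors glycine receptors at synapses, was the 1 tested glycine receptor gene. It had -0.28, -0.11 and -0.17 in MF1 and 1.45, -0.79 and -0.10 in C57, with a mean of 0.00 ± 0.76 (SD, n = 6 pools). C57 pool 1 alone was above 0, and without it the mean was -0.31. The mean also lay below 0 without centring, at -0.19, and with rostral RNA in Cy3 alone, at -0.62.

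Serotonin reaches the early cortex from the brainstem and, in rodents, from the placenta. Of 14 serotonin receptor genes 6 were tested, and 5 of them had means below 0, with a median of -0.13. The median over the genes with a value lay below 0 in 6 of 6 pools, from -0.31 to -0.01. Only 2 of the 6 genes had values in every pool, so these medians rest on differing genes. Over the 15 serotonin probes, the median was 0.26 with rostral RNA in Cy3 and -0.16 with it in Cy5. Htr5a, a receptor coupled to inhibitory G proteins, had 0.16 and -0.42 in MF1 pools 2 and 3 and -0.95 and -1.35 in C57 pools 2 and 3. Its mean was -0.64 ± 0.65 (SD, n = 4 pools) with a standard error of 0.18. The unadjusted p was 0.018 and limma's adjusted p was 0.484. The 2 arrays of a C57 pool did not read alike, with -3.02 and 1.12 in pool 2 and -0.05 and -2.64 in pool 3.

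Htr2b, a receptor known from heart and gut, had -0.60, -0.22 and 0.27 in MF1 and 0.29, -3.05 and 0.17 in C57. Its mean of -0.52 ± 1.28 (SD, n = 6 pools) rested on C57 pool 2, and without that pool it was 0.02. With rostral RNA in Cy3 alone the mean of Htr2b was 0.73. Htr7 had -0.19 ± 0.32 (SD, n = 4 pools), Htr2c had -0.09 ± 0.13 (SD, n = 5 pools) and Htr1a had -0.07 ± 0.40 (SD, n = 6 pools). Htr5b, the partner of Htr5a by sequence, was the 1 tested serotonin gene with a mean above 0, at 0.15 ± 0.59 (SD, n = 5 pools).

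The 22 genes without a test had fewer than 2 pools with both dye orientations in at least 1 strain. They were Gabra5, Gabrb1, Gabrd and Gabrg1 among the GABA-A genes, Grik1, Grin2d, Grin3b and Grm8 among the glutamate genes, Chrna2, Chrne, Chrm2 and Chrm3 among the acetylcholine genes, Glra1 and Glra3, and Htr1b, Htr1d, Htr1f, Htr2a, Htr3a, Htr3b, Htr4 and Htr6. Chrm2 had no pool with both orientations. Gabrb1, a beta subunit of the Gabra2 cluster, was picked out after its values were seen: it read 1.01, 0.39 and 1.64 in MF1 and 0.51 in C57 pool 2, above 0 in each of the 4 pools measured. Htr3a, the channel-forming serotonin receptor of many cortical interneurons, read -0.42 in MF1 pool 2 and -1.54, -0.01 and -0.43 in C57, and was picked out in the same way. Its arrays did not keep their sign with the dye, averaging 0.53 with rostral RNA in Cy3 and -1.77 with it in Cy5, while those of Gabrb1 averaged 1.46 and 0.36. Neither gene has a test.

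For the MF1 mean in the joint fit, with 1 spread shared by both strains, 2 receptor genes had an unadjusted p under 0.05. Both had a ratio below 0, Gabra3 and Chrna9, and 0 had a ratio above 0. Across all features these shares were 1.98% and 2.37%. Gabra3 had an MF1 mean of -1.18 ± 0.68 (SD, n = 3 pools), with a limma adjusted p of 0.726. Chrna9, a subunit known from hair cells of the ear, had -0.63, -2.30 and -0.35 in MF1, with a mean of -1.09 ± 1.05 (SD, n = 3 pools), and 0.21, 0.76 and -0.12 in C57. The MF1 genes with the smallest p above 0 were Chrna4, Gabrq and Gabrg3, with means of 0.34, 0.33 and 0.33 and adjusted p-values of 0.9995 each in limma's fit. The mean of Gabrq in MF1 was -0.04 and that of Gabrg3 -0.02 with rostral RNA in Cy5 alone, and the 1 Gabrg3 probe that could be fitted alone had -0.15.

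For the C57 mean in the joint fit, 3 receptor genes met the same limit below 0, Grik2, Htr5a and Gabra2, and 1 above 0, Chrng. All features gave 5.48% below 0 and 4.23% above 0. The C57 arrays were more scattered, and the shared spread does not allow for that. With each strain fitted alone, 3 of 42 receptor genes met the limit in C57 (6.98% of all features) and 2 in MF1 (3.9%). Grik2 had a C57 mean of -0.66 ± 0.21 (SD, n = 3 pools), with limma's adjusted p at 0.294, the lowest of the receptor genes in any comparison of the fit. Gabra2 had a C57 mean of -0.69 ± 0.10 (SD, n = 3 pools), and the means of its pools lay within -0.81 and -0.62. The next genes above 0 were Gabrr1 and Chrna1, with C57 means of 1.25 and 0.47, and Gabrr1 had -0.25 with rostral RNA in Cy5 alone.

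The difference between strains was tested in the same fit, and 0 receptor genes passed (limma, smallest adjusted p = 0.80). At an unadjusted p under 0.05 there were 2, Chrna9 and Htr5a, and 6.1% of all features met that limit. Chrna9 differed by -1.37 with a standard error of 0.54 (MF1 minus C57), and Htr5a by 1.01 with a standard error of 0.36. With rostral RNA in Cy5 alone the Chrna9 difference was 0.05. For Gabra3 the difference was -0.88 with a standard error of 0.40 (adjusted p = 0.861), and for Grik2 it was 0.40 with a standard error of 0.22 (adjusted p = 0.927). The strain means of 26 of 42 receptor genes, or 61.9%, had the same sign, against 56.5% of all features.

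**Figure D3:**
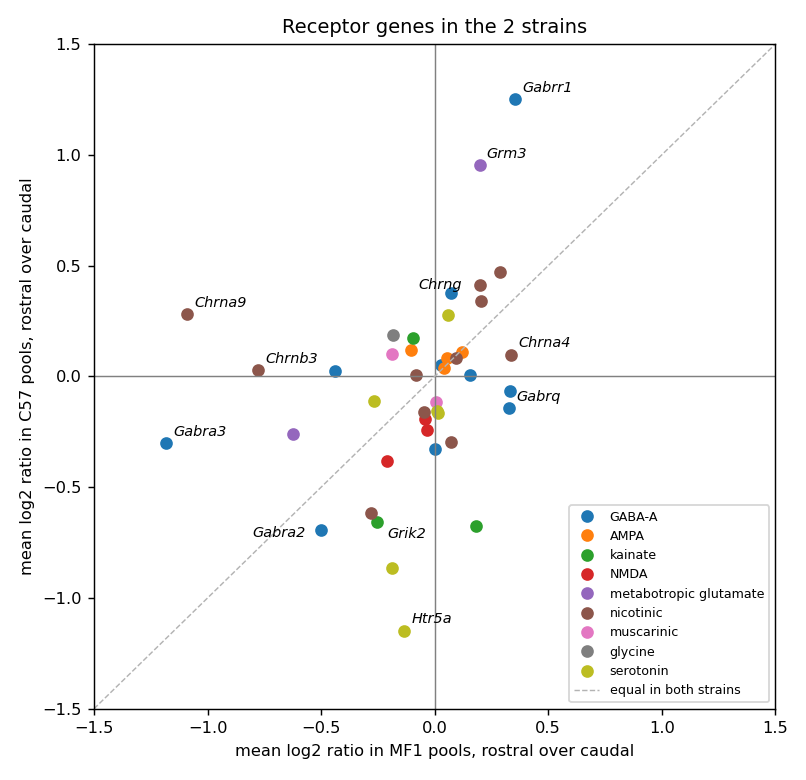
Mean log2 ratio of rostral over caudal cortex in MF1 (horizontal axis) against C57 (vertical axis), with 1 point for each of the 42 tested receptor genes, coloured by class. Gabra2, Grik2 and Gabra3 lie below 0 in both strains and Chrng above 0 in both, while Chrna9 and Chrnb3 have an MF1 mean below 0 and a C57 mean above 0.

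The dye orientation mattered for many receptor probes. On arrays with rostral RNA in Cy3 the median ratio of the 73 receptor probes was 0.21, and on arrays with rostral RNA in Cy5 it was -0.14. For all probes these medians were 0.01 and 0.00. The mean ratio was above 0 in the first orientation and below 0 in the second for 27 receptor probes, or 37.0%, and the reverse for 13, or 17.8%. Among all probes the corresponding shares were 28.7% and 27.7%. In all, 40 of 73 receptor probes, or 54.8%, had opposite signs in the orientations, near the 56.4% of all probes. Averaging both arrays of a pool cancels a dye effect that is equal on both.

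Some probes kept the sign of their mean in both orientations. The first Gabra2 probe averaged -1.38 with rostral RNA in Cy3 and -1.08 with it in Cy5, and Gabra3 averaged -0.89 and -0.60. These 2 were the receptor probes below -0.5 in both orientations, a limit that 2.2% of all probes met, and 0 receptor probes lay above 0.5 in both, where 1.92% of all probes did. Grik2 averaged -0.54 and -0.37, and Chrng averaged 0.51 and 0.10. Chrna9 averaged 0.24 and -1.05, and Htr2b 0.73 and -1.78.

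**Figure D4:**
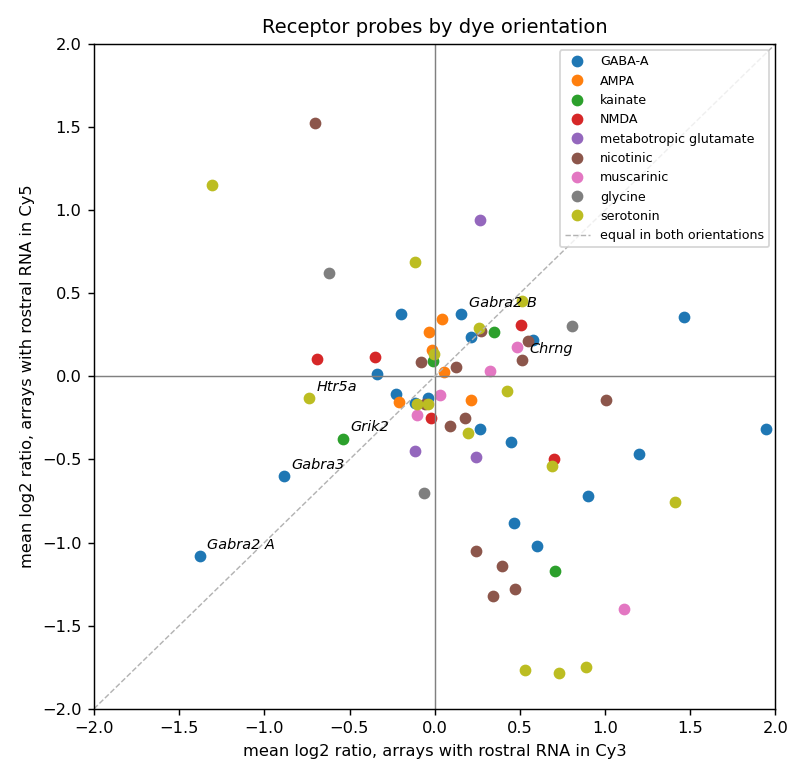
Mean log2 ratio of rostral over caudal cortex of each of the 73 receptor probes on arrays with rostral RNA in Cy3 (horizontal axis) against arrays with it in Cy5 (vertical axis), coloured by class. Points on the dashed diagonal do not depend on the dye; the lower right part, above 0 in Cy3 and below 0 in Cy5, holds 27 probes, and the first Gabra2 probe (A) lies near the diagonal at -1.38 and -1.08.

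Genes that make, move or anchor these transmitters and receptors were compared from lists chosen with earlier results of these data known. In any of these lists 0 genes passed the corrected threshold (limma, both strains). Of 9 tested genes of GABA handling 5 had means above 0 and 4 below, with a median of 0.01, and 0 had an unadjusted p under 0.05. Gad2, which makes GABA, had -0.09 ± 0.51, and Slc12a5, the transporter that lowers chloride in maturing neurons, had -0.32 ± 0.46 (SD, n = 6 pools). Of 20 genes of glutamate handling 11 lay above 0 and 9 below, with a median of 0.01, and 1 in each direction had an unadjusted p under 0.05. These were Grid1, an orphan relative of the glutamate channels, with -0.64 (adjusted p = 0.477), and Cacng4, an auxiliary AMPA receptor subunit, with 0.43 (adjusted p = 0.541).

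The acetylcholine list had 5 of 7 tested genes above 0 with a median of 0.11, and the serotonin list 3 of 5 with a median of 0.12. The glycine list had 2 of 2 above 0 with a median of 0.25. In the list of dopamine, noradrenaline and histamine receptors 7 of 20 genes were tested, all of them dopamine or histamine receptors. Of these 5 lay above 0, with a median of 0.07. In these 4 lists 0 genes had an unadjusted p under 0.05.

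Markers of cell types that could carry the receptors were read on the same scale, from lists also chosen with earlier results known. Of 16 tested markers of postmitotic neurons 9 lay above 0 and 7 below, with a median of 0.01 and pool medians from -0.18 to 0.07. Of 13 markers of ventral telencephalon and interneurons 6 lay above 0 and 7 below, with a median of -0.02 and pool medians from -0.33 to 0.06, although Dlx5, a factor of developing interneurons, had -0.63 ± 0.32 (SD, n = 6 pools) and lay below 0 in every pool. Of 8 markers of radial glia, the cortical progenitors, 7 lay above 0 with a median of 0.17 and pool medians from -0.03 to 0.38, and 2 had an unadjusted p under 0.05, Pax6 with 0.40 and Hes5 with 0.49, both above 0 in 6 of 6 pools (limma, adjusted p = 0.471 and 0.449). All 5 tested markers of the choroid plexus lay below 0, with a median of -0.51 and pool medians from -1.69 to -0.10. Of 9 markers of meninges and mesenchyme 8 lay below 0, with a median of 0.01 in MF1 and -0.46 in C57. At the same unadjusted limit over both strains, the neuron list had 1 marker below 0 and 1 above, and the ventral list 1 below. The choroid plexus list had 2 below and the meninges list 3 below, and 8.98% of all features met the limit (limma). Among the other radial glia markers, Nes lay above 0 in 5 of 6 pools and Fabp7 in 4, while Sox2, Hes1, Slc1a3 and Vim did so in 2. Gabra2, Gabra3, Grik2 and Htr5a are the receptor genes with an unadjusted p under 0.05 (limma, both strains) and a mean below 0. A direction that they share as a group with the choroid plexus markers is set by that grouping. The part of any of these cell types in the receptor ratios was not tested.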

How the data were processed

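Mouse neocortex was measured on 12 arrays of 6 pools. The values deposited by the authors were log2 ratios between the dyes, as read from the values themselves; image analysis, any within-array normalization and the numerator dye were not stated. The 701 values at the table's ceiling of 16.61 were set to missing, and 0 columns belonged to other samples. Arrays were turned to rostral over caudal, with Cy5 over Cy3 assumed, and centred on their median (deposited medians -0.41 to 0.475). Both arrays of a pool and all probes of a gene were averaged. Features with 2 or more pools per strain entered a fit with limma (version 3.58.1, under R 4.3.3; a mean per strain, 1 shared spread, Benjamini-Hochberg, threshold 0.05), a script tested on simulated data. Signal over background is unknown, and the number of arrays limits the precision. Probes were named from the platform annotation, and 64 of 64 symbols were found in the RefSeq gene table; no coordinates of probes are given, since their build was not stated.

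Pool numbers do not pair the strains, which are different animals. The genes named with full values were, per class, those with an unadjusted p under 0.05 and 1 sign in all measured pools, filled up to 2 by smallest p, all in classes of up to 3, and the 3 of smallest p per side in each strain and in the strain difference; Gabra2, Gabra3 and Htr5a enter by smallest p. Members and lists were chosen with earlier results of these data known. The alternatives were other centring and scaling, ceiling values kept, single orientations, single probes, other filters, 12 arrays with pools as random blocks, each strain fitted alone, the replicate block and leaving out each pool.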

Additional observations from a re-analysis of the deposited data

Results flagged for a closer look

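Grik5, a kainate receptor subunit, lay below 0 in every MF1 pool and above 0 in every C57 pool, with a difference of -0.27 (MF1 minus C57, log2). In limma's fit this difference had an adjusted p of 0.948. How many of all features split by strain in this way was not counted. A single pool far from the others was found for 2 of the 25 named receptor genes examined, and chance gives about 1 in 20. Glrb, the glycine receptor beta subunit, read 1.45 in C57 pool 1. Htr2b, a serotonin receptor, read -3.05 in C57 pool 2.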

How the results depend on the processing

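No receptor gene passed the corrected threshold in any comparison under any setting, apart from 1 over both strains among probes complete on 12 arrays (Gabra2, through its first probe) and 1 in C57 with rostral RNA in Cy5 alone (Gabrq, log2 ratio -1.39, but 1.11 with rostral RNA in Cy3 alone and -0.14 over both orientations). The gene means of Gabra2, Gabra3, Grik2, Htr5a and Chrng over both strains kept their direction under the alternatives that gave one, but of the Gabra2 probes fitted alone the second lay above 0, at 0.32. Counts at an unadjusted p under 0.05 moved more, while the share of all features moved in some settings and little in others. In MF1 with Cy3 alone 13.2% of receptor genes and 5.49% of all features met the limit, against 4.76% and 4.36%. The number of receptor genes tested was 53 with Cy3 alone and 48 with Cy5 alone, against 42. Over both strains the count of 5 was 11 with rostral RNA in Cy3 alone (20.8% of receptor genes and 14.8% of all features, against 11.9% and 8.98%), and 3 to 6 when a pool was left out, with 3 without MF1 pool 2. In MF1 the count of 2 was 6 without centring, 6 with scaling, 7 with Cy3 alone (all features 5.96%, 7.27% and 5.49%, against 4.36%), 4 with each probe fitted, 4 with 12 arrays and pools as random blocks (4.4% and 4.18%), and 1 to 5 with a pool left out (1 without MF1 pool 2, 5 without MF1 pool 3). In C57 the count of 4 was 2 with scaling, 14 with Cy3 alone, 7 with Cy5 alone (all features 6.05%, 20.5% and 20.2%, against 9.71%) and 1 to 4 with a pool left out (2 without MF1 pool 2, 1 without C57 pool 2, 2 without C57 pool 3). For the strain difference the count of 2 was 8 with Cy3 alone, 4 with Cy5 alone (all features 13.6% and 12.2%, against 6.1%), 1 among complete features, 0 where 1 orientation was enough, 1 with 12 arrays (4.6%, 5.95% and 4.4%) and 0 to 4 with a pool left out (0 without MF1 pool 2 or C57 pool 2, 4 without C57 pool 1). With a pool left out, 35 to 39 receptor genes were tested. The share of all features meeting the limit then ran from 6.09% to 10.2% over both strains and from 3.31% to 7.34% in MF1. It ran from 7.14% to 10.7% in C57 and from 3.99% to 7.28% for the strain difference. Without MF1 pool 2, Gabra3 had -0.57 and Gabra2 -0.44.

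With the pool number as a replicate block, 0 receptor genes passed over both strains and 3 had an unadjusted p under 0.05, against 5 without it (all features 6.68% and 8.98%). Pool numbers do not pair the strains: deviations of pools with the same number correlated at -0.11, 0.05 and 0.00. The mean of Grm3 was -0.24 with the block.

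The following log2 means changed sign, and the cause was not tested. Without centring they were -0.073 for Gria2, -0.12 for Gria4, -0.15 for Grik5 and -0.19 for Glrb. With Cy3 alone they were -0.033 for Gria2, -0.018 for Gria4, -0.010 for Grik5, 0.83 for Grik3, 0.062 for Chrm1, 0.029 for Chrm4, -0.62 for Glrb, 0.73 for Htr2b and -0.41 for the strain difference of Gabrq. With Cy5 alone they were 0.10 for Grin2b, 0.11 for Grin2c, -0.027 for Chrna4, -0.041 for Gabrq and -0.023 for Gabrg3 in MF1, and -0.25 for Gabrr1 in C57. The strain differences with Cy5 alone were -0.091 for Grik2, 0.050 for Chrna9 and 1.36 for Chrnb3 (main value -0.81). Gabrg3 in MF1 was -0.15 with each probe fitted. With a pool left out, Grin2c ranged from -0.21 to 0.0053, Chrm1 from -0.13 to 0.015, Chrm4 from -0.14 to 0.067, Glrb from -0.31 to 0.25 and Htr2b from -0.81 to 0.021. Settings combined with single probes were added after seeing the data.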
